A study of Mus musculus with 12 samples.

Results

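The stretch of mouse chromosome 10 from 117 to 118 Mb (mm10), which holds the ubiquitin ligase gene Mdm2 and the lysozyme genes Lyz1 and Lyz2, contained 25 of the 68291 H3K9me3 regions in the authors' deposited table. A region was a member when its start lay in this 1 Mb window, and the windows from 115 to 117 Mb (34 regions) and from 118 to 120 Mb (76 regions) served as flanks. The window was chosen on the log2 fold changes of this same table, so those values are given as a description, with no test. H3K9me3, trimethylation of lysine 9 on histone H3, was profiled by chromatin immunoprecipitation and sequencing (ChIP-seq) in mouse embryonic stem cells of E14Tg2a origin (129/Ola background, passages 12 to 20). The groups were Tex19.1+/- (heterozygous) and Tex19.1-/- (knockout) cells, each with 3 immunoprecipitated (IP) and 3 input libraries, and no further allele or treatment is named. In 6 of the 12 libraries the labelled genotype goes against the title, and the titles were used.

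The table holds 1 comparison of the genotypes, with 0 columns of single libraries. Which genotype was its reference, whether input was used and which libraries entered are points on which the sources used here are silent, so each change is described by its sign as deposited. No value per library, no total of reads and no spread between replicates can therefore be shown. Nothing in the labels says whether libraries came from separate cultures or clones, so the authors' p-values may reflect technical spread only. The error given below (SE) is a standard error derived from the authors' p-value, and it inherits the assumptions of their test. Signal is given as CPM, read counts scaled to library size and averaged over libraries, on a linear scale unless log2 is named. A mark present in fewer cells and a weaker mark in every cell cannot be told apart in these values. A difference in DNA copy number between the groups was not tested, since the use of input is not known. A mark of chromatin does not check the labelled cell type.

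H3K9me3 marks heterochromatin, and in embryonic stem cells it is laid down largely by SETDB1 and the SUV39H enzymes over repeats, imprinted control regions and silent genes. Active promoters usually lack it. The window holds genes of general cell function beside the lysozyme genes, and their expression in these cells was not examined. Mdm2 limits p53, Cct2 codes for a subunit of the TRiC chaperonin, and Frs2 couples FGF receptors to their signalling pathway. Yeats4 codes for a chromatin reader of the Tip60 and SRCAP complexes, Cpsf6 for a factor of messenger RNA 3′ end processing, Nup107 for a part of the nuclear pore and Rap1b for a small GTPase. Cpm codes for a membrane-bound carboxypeptidase. Lyz1 and Lyz2 are tandem copies of the lysozyme gene, known as the Paneth cell and macrophage forms, and embryonic stem cells are not a usual site of their expression.

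The promoters of these genes differ in sequence. All 10 genes matched the RefSeq promoter table (build GRCm38.p6, the assembly that mm10 names). The lysozyme copies are shown because they are tandem copies, and their regions carried the most negative values of the window. The stretches shown are the 120 bases before each start site, 5′ to 3′ on the minus strand, at chr10:117282273-117282392 for Lyz2 and chr10:117292869-117292988 for Lyz1. Capitals mark the positions at which the copies differ.
Lyz2: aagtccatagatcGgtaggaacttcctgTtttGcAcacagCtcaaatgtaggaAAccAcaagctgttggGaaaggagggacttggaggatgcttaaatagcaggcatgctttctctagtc
Lyz1: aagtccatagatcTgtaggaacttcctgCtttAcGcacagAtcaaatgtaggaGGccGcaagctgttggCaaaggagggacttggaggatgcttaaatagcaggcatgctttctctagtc

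These stretches share 111 of 120 bases, and the 50 bases next to the start site are identical. Over the whole 250 bases upstream, an alignment with gaps gave 200 identical columns of 252 (79.4%). These stretches lie outside the H3K9me3 regions of the 2 genes, whose sequences were not compared. How reads that fit both copies were counted is not given in the sources used here. Values at Lyz1 and Lyz2 are uncertain in that respect. The Mdm2 promoter is shown as one rich in CG, with every CG dinucleotide in capitals (chr10:117710759-117711008, minus strand, the 250 bases before the start site).
Mdm2: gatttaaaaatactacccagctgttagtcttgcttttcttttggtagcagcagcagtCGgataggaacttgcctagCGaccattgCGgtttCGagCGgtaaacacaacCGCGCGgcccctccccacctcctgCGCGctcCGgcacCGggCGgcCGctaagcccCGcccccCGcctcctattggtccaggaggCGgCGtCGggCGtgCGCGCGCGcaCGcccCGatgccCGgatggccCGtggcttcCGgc

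CG, which reads the same on both strands, occurs 29 times in this stretch, and 6.78% of the 32851 promoters in the table have as many in 250 bases. Lyz1 has 2 and Lyz2 has 1, against a median of 6 over all promoters. The other members range from 11 at Yeats4 to 36 at Rap1b. The GC box GGGCGG, searched on both strands, is present in 32.7% of all promoters and in 7 of the 10 members, the exceptions being Lyz1, Lyz2 and Yeats4. No H3K9me3 region lay on these promoters. Of the 31 promoter windows (300 bases each) that the table lists for 25 genes here, 0 overlapped a region, an overlap that is rare genome-wide too (897 of 32851, or 2.73%). The nearest that a region came to the start site of a member was 3786 bp, at Lyz2.

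Of the 25 regions, 23 had a negative log2 fold change and 2 a positive one in the authors' deposited table. The median was -0.57, with the middle 50% of regions from -0.66 to -0.44 and a full range from -1.80 to 0.39. That median is a ratio of 0.671, so signal on one side of the comparison was 32.9% below the other. Over the whole table the median was -0.01, and 50.8% of regions were negative. A log2 fold change of -0.5 or lower was held by 18 regions (72.0%), against 6.96% of all regions. At a deposited FDR below 0.05, 2 regions were called, both negative, where 0.0893% of all regions were called negative. Unadjusted p-values below 0.05 were held by 11 regions (4.74% of all regions). Of these, 10 were negative (2.05% of all regions) and 1 positive. These shares come from the contrast that chose the window, and nothing is read from them.

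**Figure D1:**
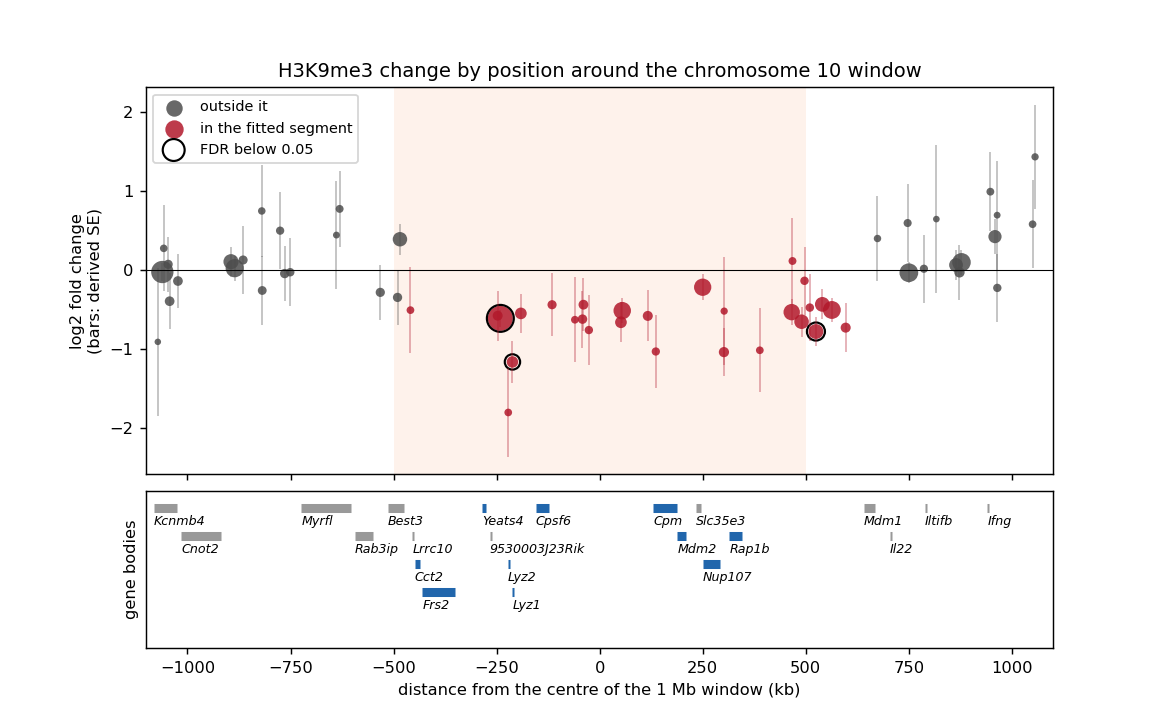
Log2 fold change of each H3K9me3 region (vertical axis, bars are derived standard errors) by distance in kb from the centre of the 1 Mb window (shaded), with point area growing with CPM and protein-coding gene bodies underneath (members blue, selected neighbours grey). Red points are the 28 regions of the fitted segment, which stay between -1.80 and 0.12 and run past the right edge of the window, and rings mark an FDR below 0.05.

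The strongest region lay between genes, 16809 bp from Lyz2 (chromosome 10, 117257512 to 117260732). At 82.8 CPM it had a log2 fold change of -0.61, with an SE of 0.10 (FDR 1.13e-05 in the authors' deposited table). It was the most precisely measured region of the window, and its value is close to the median of all 25. A weaker region beside it (117252210 to 117253089, 10.1 CPM) had -0.57 with an SE of 0.32.

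Over the lysozyme genes the values were lower still. The region in Lyz1 (117287967 to 117289027, 14.7 CPM) had a log2 fold change of -1.16 with an SE of 0.26 (FDR 0.00863 in the authors' deposited table), which made it the other called region. It covers the end of the gene away from the start site, as Lyz1 runs on the minus strand. The region in Lyz2 (117278050 to 117278486) had the most negative value of the window, -1.80, with an SE of 0.56. At 4.62 CPM it was also weak, and its FDR was 0.227, so it was not called. Both lay 2.2 SEs below the median of the window. Beyond Lyz1, a region between genes (117308268 to 117309590, 15.4 CPM) returned to -0.55, with an SE of 0.25.

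Among the genes of general cell function, Nup107 alone had a region over its body. That region (117748947 to 117751109, 38.0 CPM) overlaps the far end of the gene and had a log2 fold change of -0.22 with an SE of 0.16 (FDR 1 in the authors' deposited table). It stood 2.2 SEs above the median of the window, the least negative value among the 8 regions of the fitted segment with a log2 CPM of at least 4. It is also the region nearest to Mdm2, at 38189 bp from that gene's start site, so the table holds no H3K9me3 value at Mdm2 itself. It lies 2589 bp from Slc35e3, a gene of the solute carrier family. Further along, a region between Nup107 and Rap1b (117801181 to 117802049, 10.97 CPM) had -1.04 with an SE of 0.30 and an FDR of 0.145. A short neighbour of it (117802066 to 117802246, 3.73 CPM) is the region nearest to Rap1b, at 12.4 kb from the gene, and had -0.52 with an SE of 0.69.

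Cpm carried 1 region inside its body (117636005 to 117636649, 5.93 CPM), 6505 bp from the start site. Its log2 fold change was -1.03 with an SE of 0.46 and an FDR of 0.878. Cpsf6 had none; the nearest, 7233 bp away beyond its start site (117384231 to 117384957, 8.04 CPM), had -0.44 with an SE of 0.40. The remaining members were farther from any region. Yeats4 lay 27.7 kb from the region at 117252210, while Cct2 and Frs2 lay 9.75 and 28.9 kb from one at 117040746. That last region was weak (4.70 CPM) and had -0.50 with an SE of 0.54. In all, 4 of the 10 genes had a region over the body and 6 had none within 5 kb.

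The rest of the window was made of regions between genes or in long noncoding RNA genes. By place, 15 regions lay between genes (14 negative, median -0.55) and 4 in noncoding RNA genes alone (all negative, median -0.60). The other 6 lay in protein-coding genes (5 negative, median -0.69). Gm51783 held 2 regions, at -0.62 and -0.44, and Gm32365 and Gm32605 held 1 each, at -0.58 and -1.01, none of them called. Between the lysozyme genes and Cpm, adjacent regions at 117551150 (15.4 CPM) and 117553670 (38.9 CPM) had -0.66 and -0.51, with SEs of 0.25 and 0.16. Toward the end of the window, regions at 117964939 (33.8 CPM) and 117988991 (25.9 CPM) had -0.53 and -0.65, with SEs of 0.16 and 0.19.

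The 2 positive regions differed in kind. The first (117014701 to 117016410, 25.5 CPM) lay in Best3, a gene of the bestrophin channel family at the left edge of the window. It had a log2 fold change of 0.39 with an SE of 0.20 and an unadjusted p of 0.0456 (FDR 1). The second (117967731 to 117968123) was weak, at 5.10 CPM, and its value of 0.12 had an SE of 0.54. The region in Best3 stood 4.9 SEs above the median of the window, and the weak one 1.3.

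Most values lay near the median for their errors. Of the 25 regions, 18 lay within 1 SE of the median and 21 within 2. The exceptions were Lyz1 and Lyz2 below and Nup107 and Best3 above. The level was similar across signal classes. The 9 regions below a log2 CPM of 3 had a median of -0.63, the 10 from 3 to 4 a median of -0.58, and the 6 at 4 or more a median of -0.52. Precision did change, with SEs from 0.43 to 0.69 in the weakest class and from 0.10 to 0.20 in the strongest. No region of the weakest class was called, and 2 of its 9 had an unadjusted p below 0.05 (4.74% of all regions). With errors this close to the size of the median, the lack of calls there says little about change.

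**Figure D2:**
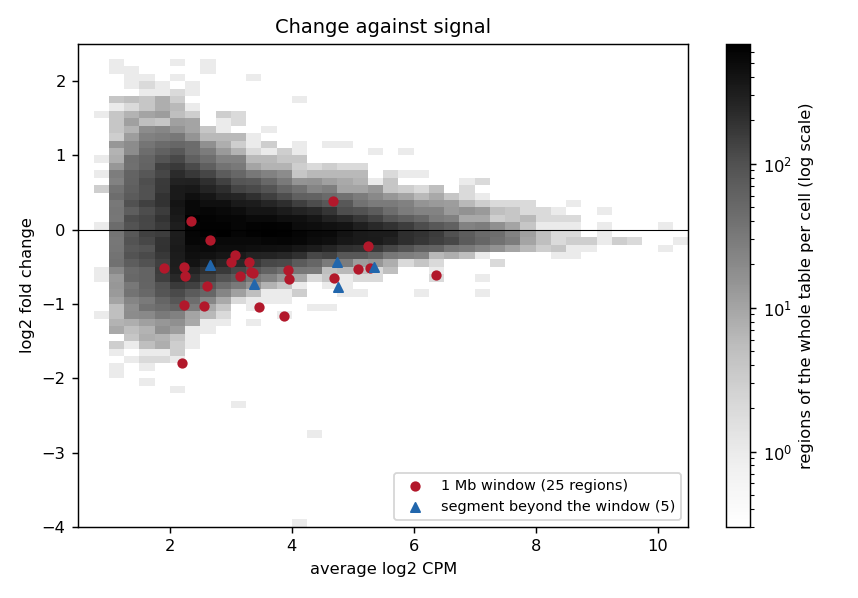
Log2 fold change against average log2 CPM, with the number of regions of the whole table in grey (log scale), the 25 regions of the window as red dots and the 5 regions of the fitted segment beyond it as blue triangles. Nearly all coloured points lie below 0, inside the wide cloud at low signal and along its lower margin from a log2 CPM of 4 on, apart from the regions at Best3 (0.39) and Nup107 (-0.22).

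The edges of the window are round positions and not those of the shift. Just inside the left edge lay a region in Best3 at -0.34 (117009242), and just outside it a region at -0.28 (116967470). Just inside the right edge was a value of -0.13 (117996882) and just outside it one of -0.47 (118009791). To place the shift, a single segment with its own median was fitted to the 135 regions from 115 to 120 Mb by the smallest sum of absolute deviations. It ran from 117040746 to 118097436, a length of 1057 kb, and took in 28 regions, of which 27 were negative. Its median was -0.58. It left out both regions in Best3 and added 5 regions beyond 118 Mb.

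The fit took in those 5 regions for their low values, so their signs and p-values are a description only. All were negative, with values from -0.78 to -0.43. An unadjusted p below 0.05 was held by 4 of them, where 2.05% of all regions were negative with such a p. Of the 5 regions, 3 lay in the noncoding RNA gene Gm32663 (118013133 to 118070670). The region at 118023979 to 118025679 (27.2 CPM) was called, with a log2 fold change of -0.78, an SE of 0.19 and, in the authors' deposited table, an FDR of 0.0201. Those starting at 118039327 and 118062163 had -0.43 and -0.50 and were not called. The last 2 regions inside the segment were therefore that at -0.50 (41.0 CPM) and one at -0.73 (118096537 to 118097436, 10.4 CPM, SE 0.31).

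The right end is described first with all regions counted. The first regions past it, at 118173967 and 118246971, had 0.40 and 0.60, both weak (4.08 and 5.50 CPM) with SEs of 0.54 and 0.49. A strong region followed at 118248753 (45.3 CPM) with -0.03. The end therefore lay within a gap of 76.5 kb without regions, and this gap holds Mdm1, a gene for a centriole protein. The cytokine genes Il22 and Ifng lie beyond it. Among regions of at least a log2 CPM of 3 alone, the next region after the end was that at 118248753. The wider gap then also holds Il22 (118204584 to 118210047). Whether the shift reaches Il22 thus rests on the weak region at 118173967. The remaining 71 regions up to 120 Mb had a median of 0.10, and 46 of them were positive. Of the 71, 0 were called, where 0.281% of all regions were. An unadjusted p below 0.05 was held by 3, all positive (4.23%, near the 4.74% of all regions).

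The left start moved with the limit on signal. With all regions counted, the segment began in a gap of 24.3 kb, between 117016410 and 117040746. Its first region was a weak one, 4095 bp from Lrrc10 and 9751 bp from Cct2, with an SE of 0.54. The next region stood at 117252210, and no region lay between 117041246 and that point. With regions of at least a log2 CPM of 3 alone, the start moved to 117252210. Cct2, Frs2 and Yeats4 lie in this stretch, so whether the shift covers them cannot be read from the table. From 115 to 117 Mb, 19 of 34 regions were negative and the median was -0.03. There 0 were called and 0 had an unadjusted p below 0.05, against 0.281% and 4.74% of all regions.

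**Figure D3:**
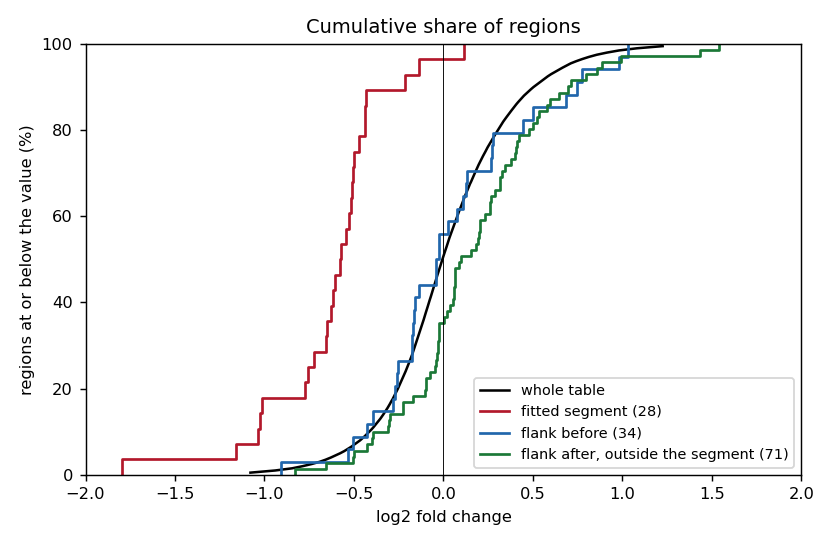
Share of regions (vertical axis, %) at or below each log2 fold change (horizontal axis) for the fitted segment, the flank before the window, the flank after it outside the segment, and the whole table. The curve of the segment, with a median of -0.58, is displaced to the left of the other 3, whose medians are -0.03, 0.10 and -0.01.

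Regions with a log2 CPM of at least 4 had the smallest errors, and they are described here with no test, since the window and the segment were chosen on these values. In the window 5 of 6 such regions were negative, from -0.65 to -0.22, and the other was that in Best3 at 0.39. The segment leaves out the region in Best3 and adds 3 beyond 118 Mb, so all 8 of its strong regions were negative, from -0.78 to -0.22. In the flank before there were 3 such regions, from -0.02 to 0.11, and in the flank after, outside the segment, 10, from -0.30 to 0.42.

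In number, width and signal, which the choice did not use, the regions were close to those of the whole table. The window had 25 regions, where the median over windows of 1 Mb with at least 8 regions was 24. The median region was 879 bp wide and had a log2 CPM of 3.29, against 773 bp and 3.08 in the whole table. The flanks had somewhat narrower and weaker regions, at 534 bp and 2.55 before the window and 621 bp and 2.66 after it. The window held 0.0373% of the summed CPM of the table, over 26.8 kb of listed regions. Regions are neighbours and not replicates, so these differences carry no p-value.

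No other run of low values on chromosome 10 was as long. In a running median over 9 regions, 33 of 3596 positions on the chromosome were at -0.4 or lower, and 28 of them formed 1 unbroken run over this segment. The lowest running median there was -0.66. Of 2422 windows of 1 Mb with at least 8 regions, this window had the lowest median, and the next lowest on chromosome 10 was -0.25. These ranks reuse the values that chose the window, so they are a description and nothing is read from them. The window closest to it in median log2 fold change was chromosome 16 from 98 to 99 Mb (-0.51, 24 regions). An unplaced scaffold with 13 regions (-0.42) came next, and then chromosome 16 from 97 to 98 Mb (-0.40, 16 regions), which holds Dscam and Bace2. Chromosome X from 4 to 5 Mb (-0.38, 11 regions) and chromosome Y from 5 to 6 Mb (-0.35, 18 regions) followed.

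**Figure D4:**
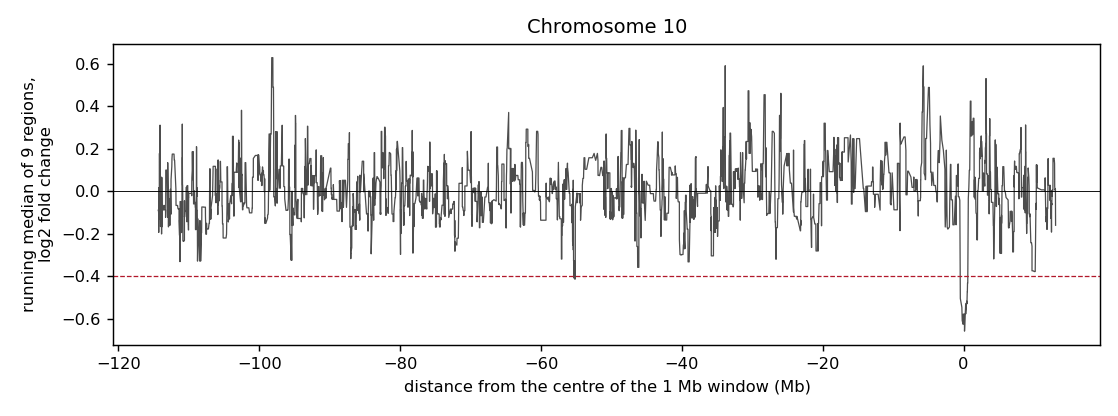
Running median of the log2 fold change over 9 consecutive regions along chromosome 10, by distance in Mb from the centre of the 1 Mb window, with a dashed line at -0.4. The single broad dip, down to -0.66, lies at 0 on the horizontal axis.

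Lists of genes related to the members differed in how many had an H3K9me3 region within 5 kb, and 34.3% of 21887 protein-coding genes had one. The count was 8 of 10 in the lysozyme family and 6 of 8 among carboxypeptidases, both including members from this window. It was 6 of 15 for YEATS proteins and the Tip60 complex, 4 of 12 around Rap1 and 3 of 10 around Frs2 and the FGF receptors. Fewest were found for TRiC (1 of 9), the Y complex of the nuclear pore (1 of 10, Nup107 itself) and 3′ end processing (0 of 12). Of 22 genes of the p53 pathway, 5 had regions within 5 kb (7 regions, 2 negative and 5 positive). Their median was 0.13 and their range from -0.06 to 0.71. The broad region at Trp53inp1, a p53 target (328 CPM), had -0.01 with an SE of 0.06. The region at Cdkn1a, the cell cycle inhibitor induced by p53, had 0.06 with an SE of 0.28. None was called by the authors' FDR, and 0 had an unadjusted p below 0.05. Over all regions 0.281% were called and 4.74% had such a p. Lists this small would hold few of either at those shares, here and below.

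The lysozyme family outside chromosome 10 had 12 regions, most of them at Lyzl4. They were 8 negative and 4 positive, with a median of -0.04. By the authors' FDR 0 were called, and 2 had an unadjusted p below 0.05. These were at Lyzl4 (-1.37, SE 0.65) and at Lyzl6 (0.89, SE 0.35), and their signs are opposite. The carboxypeptidase list had 18 regions besides that in Cpm, most of them at Cpxm2. Their median was -0.05, with 0 called and 1 at an unadjusted p below 0.05.

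The other lists were thin. The TRiC list had 1 region, at Cct6b (-0.02), the Y complex list had the region at Nup107 alone, and the list of 3′ end processing had none. The list of YEATS proteins and the Tip60 complex had 9 regions, 8 of them positive, with a median of 0.44 and none called (0 at an unadjusted p below 0.05). Of those, 3 were at Yeats2 on chromosome 16. The list around Frs2 and the FGF receptors had 5 regions (median -0.15) and the Rap1 list 8 (median 0.06). In these 2 lists 0 regions were called by the authors' FDR, and 1 region, in Fgfr2 (1.23, SE 0.57), had an unadjusted p below 0.05.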

How the data were processed

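The only file analysed was the authors' deposited table of 1 comparison, whose 4 measured columns are, per the file headers, log2 fold change, average log2 CPM, p-value and FDR (adjusted p-value). The tools listed in the submitters' processing notes, without roles, are edgeR (version not stated), bedtools 2.25.0, HOMER 4.8 and Bowtie2 2.2.6, and the build is mm10. A standard error was derived as the absolute log2 fold change over the normal deviate of the 2-sided p-value if this was 1 or more, and otherwise as the median of regions in the same 0.5-wide bin of log2 CPM. A call is a deposited FDR below 0.05. Genes and promoters came from RefSeq tables of GRCm38.p6; exons, introns and repeats were not analysed here. The segment had to span at least 5 regions. Its search was tested on regions drawn at random, with a planted shift of similar size and length. A median offset of up to 5 regions at each edge counted as a pass. That test does not measure how exact the edges here are. Python 3.11.15, pandas 2.3.3 and scipy 1.17.1 were used. Members and lists were chosen with earlier results of these data known. Named in full were the regions at or nearest the 10 genes, called and positive regions, the strongest one and those at the segment's edges; other regions were named after their values were seen.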

Additional observations from a re-analysis of the deposited data

How the results depend on the processing

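The median of -0.57 over the 25 regions stayed between -0.61 and -0.52 under 9 of 10 alternatives: subtraction of the median of like signal or of chromosome 10, limits on log2 CPM of 3 and 4, weighting by CPM or width, the narrower window, the fitted segment, and omission of called regions. With the window widened by 0.5 Mb on each side it was -0.28 over 53 regions, since 23 of the 28 added regions lie outside the segment. The 2 calls became 11 at an unadjusted p below 0.05 and 1, the region of 82.8 CPM, under Holm adjustment. The start of the segment, 117040746, became 117252210 with regions of at least a log2 CPM of 3 alone, while its end was 118097436 in all 4 alternatives. Under that limit, however, the next region after the end was at 118248753 and no longer at 118173967. No paired analysis was possible because the table has no values per library, and leaving out replicates was not run for that reason.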

Other observations

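Across the genome, 104 runs of positions had a running median over 9 regions at -0.4 or lower, and together they made up 0.471% of 67961 positions. The run on chromosome 10 was the longest, with 28 positions, a rank that reuses the values on which the window was chosen. Next came runs of 26 and 12 positions on chromosome 16 (97524733 to 98098484 and 96384652 to 96750929) and 1 of 12 positions on chromosome 8 (30774848 to 31022992, lowest running median -0.69). No explanation of these runs was tested.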
